A study of Mus musculus with 4 samples.

Results

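Deletional joins between breaks in Sμ and the body of Sγ1, the switch region of the IgG1 constant gene (Ighg1), were examined in activated mouse B cells. Members were all joins listed on the minus strand of Sγ1 with a prey coordinate of 114570384 or higher on chromosome 12 of mm9. That limit is the 2.5th percentile of deletional Sγ1 joins in Wildtype, so the coordinates themselves chose the members and the share of joins inside the limit is a description. Of 18731 junctions in the 4 libraries, 7389 were deletional Sγ1 joins and 7146 of these were members. CtIP_AA held 1294 of its 1313 deletional Sγ1 joins in the body, CtIP_KO 924 of 950, XRCC4_KO 1315 of 1420 and Wildtype 3613 of 3706. The whole libraries held 3220 junctions in CtIP_AA, 2555 in CtIP_KO, 3521 in XRCC4_KO and 9435 in Wildtype.

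CtIP_AA was homozygous for the CtIP substitution T855A, and its label names no Cre and no XRCC4 allele. CtIP_KO was CD21Cre+ CtIP C/- XRCC4 +/C, and XRCC4_KO was CD21Cre+ CtIP +/- XRCC4 C/-. Wildtype was CD21Cre+ CtIP +/C XRCC4 +/C, so it carried Cre and a C allele of both genes. CD21 drives Cre in mature B cells, and the share of cells in which an allele was deleted is not given in the labels. All 4 libraries came from CD43- splenic B cells with IgH and IgK loci that were already assembled, grown for 4 days with 1 ng/mL anti-CD40 and 20 ng/mL IL-4. The strain label gives BL6 and the growth protocol gives 129Sv. Genomic DNA holds no marker transcripts, so the cell type could not be checked. Each genotype is 1 library, so every test below compares libraries by their counts of joins, not genotypes, and every interval covers counting error only. All 3 mutant libraries are set against the same Wildtype library.

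Class switching replaces the IgM constant region by joining a break in Sμ to a break in a downstream switch region, with loss of the DNA between them as a circle. AID, a cytidine deaminase, starts these breaks at cytosines in transcribed switch repeats, and AGCT is its best known target word because it offers a cytosine on both strands at the same place. XRCC4 works with DNA ligase IV in classical end joining, and joins made without it are known to carry more microhomology, the short overlap that bait and prey share. CtIP promotes end resection, the trimming of one strand at a break. Sγ1 is built of tandem repeats, is G-rich on the strand that is read towards the constant gene, and lies on the minus strand of chromosome 12, so lower coordinates lie downstream. In a deletional join the prey reads from its first base, the junction coordinate, towards lower coordinates.

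The bait and the most used part of the body are shown first, because the results turn on words that occur in both. Bases were taken from the deposited tables, which list 20 bases of the genome around each junction. Laying 4206 such windows over each other gave a base for 6533 of 6614 coordinates from 114570384 to 114576997, with 0 conflicts among 84120 bases laid down. The bait is the stretch from the nested primer in Sμ, mm9 chr12:114664810-114664909, minus strand, read from 3709 blunt reads. The second line is the start of the 150 bases of the body with the highest mean share of joins over the libraries, mm9 chr12:114573657-114573756, minus strand. Capitals mark the bait words at which prey most often started: CCAGGCA at base 29 of the bait, the word AGCCAG at base 48 and the word GGCAGCCA at base 55.
Bait: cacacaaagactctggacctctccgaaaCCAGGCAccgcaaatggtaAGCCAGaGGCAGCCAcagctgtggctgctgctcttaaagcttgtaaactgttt
Body: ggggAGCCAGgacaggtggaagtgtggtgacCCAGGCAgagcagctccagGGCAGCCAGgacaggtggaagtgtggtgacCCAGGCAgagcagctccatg

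The whole 150 bases, mm9 chr12:114573607-114573756, minus strand, are shown with AGCT in capitals, since the highest peak of join starts in CtIP_AA, CtIP_KO and Wildtype lay in that word.
Densest stretch: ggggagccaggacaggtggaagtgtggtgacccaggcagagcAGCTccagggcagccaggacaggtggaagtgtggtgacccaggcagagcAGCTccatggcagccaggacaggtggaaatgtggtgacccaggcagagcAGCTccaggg
This stretch is 2.27% of the coordinates read. It took 6.44% of body joins in CtIP_AA (83 joins), 6.86% in CtIP_KO (63), 5.56% in XRCC4_KO (72) and 4.78% in Wildtype (172). The stretch was picked for its high mean share, so an excess over its length follows from the choice. On the strand read downstream, guanine made up 37.6% of the bases, adenine 28.5%, cytosine 18.2% and thymine 15.7%.

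The joins formed a broad peak with its top 3 to 4.5 kb upstream of the body's downstream edge. The same 3 bins of 500 bp, from 114573384 to 114574883, were the fullest in every library. Together they held 47.8% of deletional Sγ1 joins in CtIP_AA, 42.3% in CtIP_KO, 38.5% in XRCC4_KO and 40.1% in Wildtype. The fullest single bin of CtIP_AA, 114574384 to 114574883, held 214 joins (16.3%, 95% Wilson interval 14.4 to 18.4). That of CtIP_KO, 114573384 to 114573883, held 143 (15.1%, 12.9 to 17.5). XRCC4_KO had 187 joins in its fullest bin, 114574384 to 114574883 (13.2%, 11.5 to 15.0), and Wildtype had 516 in 114573884 to 114574383 (13.9%, 12.8 to 15.1). The intervals of these shares overlap between neighbouring bins of the peak in every library, so the order of the 3 bins is not resolved. Over the central stretch of 5.914 kb, which holds the middle of the Wildtype distribution, there were 210 joins per kb in CtIP_AA, 150 in CtIP_KO, 209 in XRCC4_KO and 595 in Wildtype. Per 1000 deletional Sγ1 joins these densities came to 160, 158, 147 and 161 joins per kb in the same order.

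**Figure D1:**
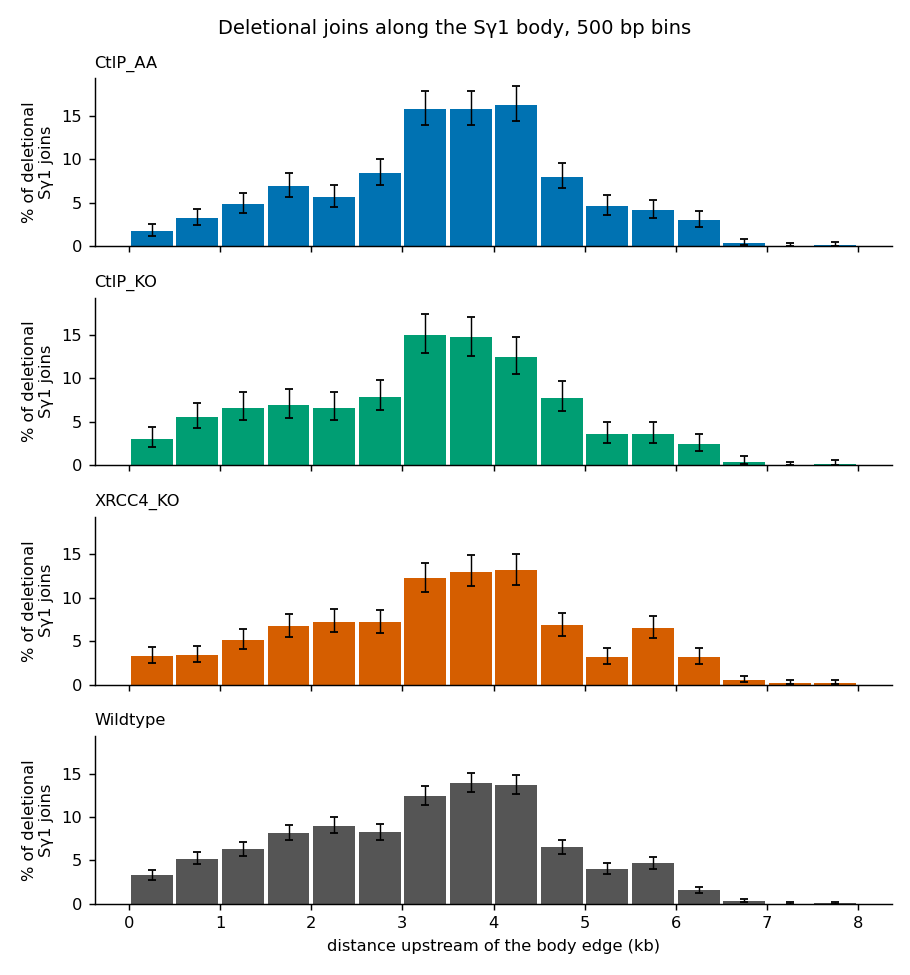
Share of each library's deletional Sγ1 joins (vertical, percent) in 500 bp bins by distance upstream of the body edge (horizontal, kb), with 95% Wilson intervals as bars and Wildtype at the bottom. In every library the 3 bins from 3 to 4.5 kb are the fullest, and few joins lie beyond 6.5 kb.

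Inside the body the joins of CtIP_AA and of XRCC4_KO had their medians further upstream than those of Wildtype. The median body coordinate was 114573967.5 in CtIP_AA (exact 95% interval 114573897 to 114574075), against 114573711 in Wildtype (114573659 to 114573777). The 25th percentiles stood further apart than the 75th percentiles, at 114573051 in CtIP_AA and 114572441 in Wildtype for the first and 114574741 in CtIP_AA and 114574591 in Wildtype for the second. CtIP_KO had its median at 114573746.5 (114573656 to 114573887), an interval that overlaps that of Wildtype. The median of XRCC4_KO lay at 114573931 (114573848 to 114574052), and its interval, like that of CtIP_AA, lies upstream of the Wildtype interval. The span from the 25th to the 75th percentile was 1690 bp in CtIP_AA, 2219 bp in CtIP_KO, 2092 bp in XRCC4_KO and 2150 bp in Wildtype.

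The test by bin placed these differences. Each 500 bp bin with 10 or more joins in a pair of libraries was compared by Fisher's exact test as a share of all deletional joins of its region, with Benjamini-Hochberg adjustment over the bins of Sμ, Sγ1 and Sε. In CtIP_AA, 5 of 14 body bins differed from Wildtype, 2 higher and 3 lower, where 23.7% of all 38 bins tested in the 3 regions did. Lower shares in CtIP_AA lay downstream, in the bins at 0, 500 and 2000 bp from the edge. The bin from 114572384 to 114572883 held 74 joins in CtIP_AA (5.64%), against 334 in Wildtype (9.01%), odds ratio 0.603 with 95% interval 0.458 to 0.785 (exact adjusted p = 0.00302). Higher shares lay in the bin from 114573384 (207 joins or 15.8% in CtIP_AA, 461 or 12.4% in Wildtype, odds ratio 1.32, exact adjusted p = 0.0139) and in the bin from 114576384 at the upstream end (39 joins or 2.97%, against 57 or 1.54%, odds ratio 1.96, exact adjusted p = 0.0132). With each coordinate counted once per library, a measure that depends on depth, none of the 14 bins of CtIP_AA passed the test, and the exact adjusted p of these 5 bins lay between 0.0572 and 0.127 with odds ratios in the same directions.

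In XRCC4_KO, 3 of 14 body bins differed from Wildtype, 2 higher and 1 lower, where 32.6% of 43 bins tested in the 3 regions did. Both higher bins lie side by side near the upstream end. The bin from 114575884 to 114576383 held 92 joins in XRCC4_KO (6.48%), against 173 in Wildtype (4.67%), with odds ratio 1.41 (1.08 to 1.85) and an exact adjusted p of 0.0338. With each coordinate counted once per library this bin no longer passed Fisher's exact test (odds ratio 1.31, adjusted p = 0.277). The bin from 114576384 to 114576883 held 45 joins in XRCC4_KO (3.17%), against 57 in Wildtype (1.54%), with odds ratio 2.09 (1.38 to 3.17) and an exact adjusted p of 0.00155. The lower bin ran from 114570884 to 114571383, with 48 joins (3.38%) in XRCC4_KO against 193 (5.21%) in Wildtype (odds ratio 0.637, exact adjusted p = 0.0167). The split moved with the bins, to 1 higher and 3 lower with bins of 1000 bp, 2 higher and 3 lower on a shifted grid, and 2 higher and 0 lower over body joins alone. Over body joins alone, this lower bin no longer passed the test (odds ratio 0.671, exact adjusted p = 0.133). In CtIP_KO, 0 of 14 body bins passed Fisher's exact test after adjustment and 2 had an unadjusted p under 0.05, with 0% of 38 bins called over the 3 regions. Its bins from 114572384 (6.63% in CtIP_KO and 9.01% in Wildtype) and from 114573384 (15.1% and 12.4%) were those 2, with exact adjusted p = 0.652 for both.

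At the upstream end, shares were below 0.5% in the bin that starts 6.5 kb above the edge, with 4 joins in CtIP_AA, 4 in CtIP_KO, 7 in XRCC4_KO and 11 in Wildtype. The 97.5th percentile of body joins lay 6070 bp above the edge in CtIP_AA, 6111 bp in CtIP_KO, 6363 bp in XRCC4_KO and 5917 bp in Wildtype. The 99th percentile lay at 6324, 6429, 7682.5 and 6225 bp in the same order. Joins 6.5 kb or more above the edge were 6 of 1294 in CtIP_AA (0.464%, 0.213 to 1.01), 8 of 924 in CtIP_KO (0.866%, 0.439 to 1.70), 23 of 1315 in XRCC4_KO (1.75%, 1.17 to 2.61) and 18 of 3613 in Wildtype (0.498%, 0.315 to 0.786). The highest coordinates were 114578870 in CtIP_AA, 114581358 in CtIP_KO, 114582386 in XRCC4_KO and 114580280 in Wildtype. Beyond 10 kb there were 0 joins in CtIP_AA, 1 in CtIP_KO, 6 in XRCC4_KO and 0 in Wildtype. These tails are given as a description, without a test. At the downstream limit, the nearest joins inside lay 25, 9, 20 and 4 bp above the edge in CtIP_AA, CtIP_KO, XRCC4_KO and Wildtype, and the nearest outside lay 18, 51, 37 and 8 bp below it.

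Single coordinates were used again and again, but none dominated. Body joins fell on 969 distinct coordinates in CtIP_AA, 755 in CtIP_KO, 971 in XRCC4_KO and 2136 in Wildtype. Drawn down to 924 joins by the exact rarefaction formula, the expected numbers were 737 in CtIP_AA, 755 in CtIP_KO, 731 in XRCC4_KO and 771 in Wildtype. At equal depth Wildtype had the most coordinates and XRCC4_KO the fewest. The fullest coordinate held 7 joins in CtIP_AA (0.541% of body joins), 6 in CtIP_KO (0.649%), 9 in XRCC4_KO (0.684%) and 12 in Wildtype (0.332%). Of the coordinates of CtIP_AA, 481 were also used in Wildtype, which is 49.6% of the CtIP_AA and 22.5% of the Wildtype list. The shared numbers were 366 for CtIP_KO (48.5% and 17.1%) and 450 for XRCC4_KO (46.3% and 21.1%). All 4 libraries used 48 of the 3338 coordinates used in any of them (1.44%).

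The most used coordinates often held the same word in different copies of the repeat. The 6 coordinates with the highest mean share follow, each with 15 germline bases lost in the join in lower case and the first 20 bases kept as prey in capitals, on the minus strand of mm9.
chr12:114574968-114575002: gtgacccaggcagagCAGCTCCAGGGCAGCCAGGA
chr12:114573696-114573730: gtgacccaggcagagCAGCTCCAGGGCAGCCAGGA
chr12:114574760-114574794: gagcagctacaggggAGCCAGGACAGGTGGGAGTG
chr12:114573681-114573715: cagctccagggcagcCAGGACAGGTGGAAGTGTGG
chr12:114573632-114573666: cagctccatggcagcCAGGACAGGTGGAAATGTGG
chr12:114574708-114574742: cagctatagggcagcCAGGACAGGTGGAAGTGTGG
Prey starting at 114574987, the first of these, had 5 joins in CtIP_AA, 4 in CtIP_KO, 9 in XRCC4_KO and 4 in Wildtype. The second, 114573715, had 2, 6, 1 and 6 joins in the same order. Both have the same 35 bases around the join although they lie in different repeats. The last 3 lines (114573700, 114573651 and 114574727) start at the same CAGG of the repeat, with 3, 4, 1 and 8 joins, 3, 5, 1 and 2 joins, and 2, 2, 4 and 8 joins in the same order. The remaining line, 114574779, starts at AGCCAG and had 0, 5, 4 and 5 joins.

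Several of the fullest coordinates of a library were nearly empty in the others. In CtIP_AA, 114572324 held 7 joins and the other libraries 0, and 114573993 held 7, with 1 in Wildtype and 0 in the other two. The 7 joins at 114572324 had 2 different bait ends and those at 114573993 had 4. The next 3 of CtIP_AA, 114571552, 114574392 and 114574395, held 6 each with 6, 3 and 3 bait ends. In CtIP_KO the fullest, 114573715, held 6 joins with 6 bait ends, 114573651 and 114574779 held 5 each, and 114573700 and 114574738 held 4 each. In XRCC4_KO, 114573428 and 114573973 held 9 joins each, against 0 in Wildtype, and all 9 joins at 114573973 were blunt with 1 bait end. The other leading coordinates of XRCC4_KO were 114574987 with 9 joins, 114574801 with 7 and 114573753 with 6, against 4, 1 and 4 in Wildtype. In Wildtype, 114574629 held 12 joins, 114572253, 114574003 and 114574395 held 11 each, and 114573613 held 10, against 0, 0, 1, 0 and 1 in XRCC4_KO. At these coordinates CtIP_AA held 2, 0, 3, 6 and 4 joins, and CtIP_KO 0, 0, 0, 0 and 1. Every coordinate here was picked as among the fullest of 1 library, so lower counts in the others follow in part from the choice. Joins with the same bait end and the same prey coordinate may be copies of 1 DNA molecule or of 1 cell's join, and the labels do not say how the deposited lists treated them.

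Only coordinates with 10 or more joins in the pair were tested, which leaves out most of the leading coordinates of the mutant libraries. Of 11 body coordinates tested in CtIP_AA, 10 in CtIP_KO and 15 in XRCC4_KO, 0 were called in each by Fisher's exact test, with 0% called among the 23, 18 and 27 coordinates tested over the 3 regions. At an unadjusted p under 0.05 there were 0, 2 and 7. Of these in XRCC4_KO, 114572253, 114574395 and 114574629 met the minimum through Wildtype alone, with 11, 11 and 12 joins against 0 in XRCC4_KO. The direction of these coordinates is fixed by that choice, so no difference is read from the counts. A minimum of 5 joins likewise lets in coordinates that meet it through the library in which they are high, so their direction is fixed by the choice and they are given as values only. Those past the threshold there were 114572324, 114573993 and 114575884 in CtIP_AA, with 7, 7 and 6 joins against 0, 1 and 0 in Wildtype, and 114573428 and 114573973 in XRCC4_KO, named above. Over body joins only, 114574987 passed the threshold in XRCC4_KO, with 9 joins against 4 in Wildtype. It reached the minimum of 10 through XRCC4_KO, where it is high, so these counts are given as values only. Coordinates were also chained where the next used one lay within 2 bp, so a group can span more than 2 bp. A group starting at 114572429 passed the threshold with 9 joins in XRCC4_KO, against 2 in Wildtype. One starting at 114573938 passed it with 5 joins in XRCC4_KO, against 55 in Wildtype. Each group met the minimum through the library in which it is high, so they too are given as values only.

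Pairs of joins were more frequent at the repeat length of the region, 49 bp, and at 98 bp in every library. Genome bases that lie 49 bp apart in the body were identical at 53.6% of positions, and those 98, 147 and 196 bp apart at 48.98%, 43.6% and 40.4%, where the median over spacings up to 200 bp was 27.7%. Pairs of joins 49 bp apart numbered 516 in CtIP_AA, 255 in CtIP_KO, 521 in XRCC4_KO and 3574 in Wildtype. That was 1.35, 1.48, 1.63 and 1.35 times the mean of the spacings up to 19 bp to either side. At 98 bp the ratios were 1.47, 1.46, 1.57 and 1.31 in the same order. At 147 bp they were 1.40, 1.05, 1.39 and 1.21, and at 196 bp 1.41, 1.10, 1.54 and 1.22. The 2 low ratios of CtIP_KO rest on 175 and 184 pairs. Its ratios 1 bp lower, at 146 and 195 bp, were 1.31 and 1.27, but 41 bp, no multiple of 49 bp, gave 1.34 in CtIP_KO. Whether its excess was smaller at the longer multiples is therefore not resolved. The highest ratio of all spacings from 20 to 200 bp was at 49 bp in CtIP_KO, XRCC4_KO and Wildtype and at 98 bp in CtIP_AA. At 48 bp and 50 bp the ratios were 1.25 and 1.21 in CtIP_AA and 1.13 and 0.902 in CtIP_KO. They were 1.01 and 1.00 in XRCC4_KO, and 1.08 and 1.06 in Wildtype. CtIP_AA had ratios of that size at other spacings too, with 1.31 at 52 bp and 1.29 at 57 bp, so no width of the peak is read. Pairs of joins share their members, so these ratios are descriptions.

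**Figure D2:**
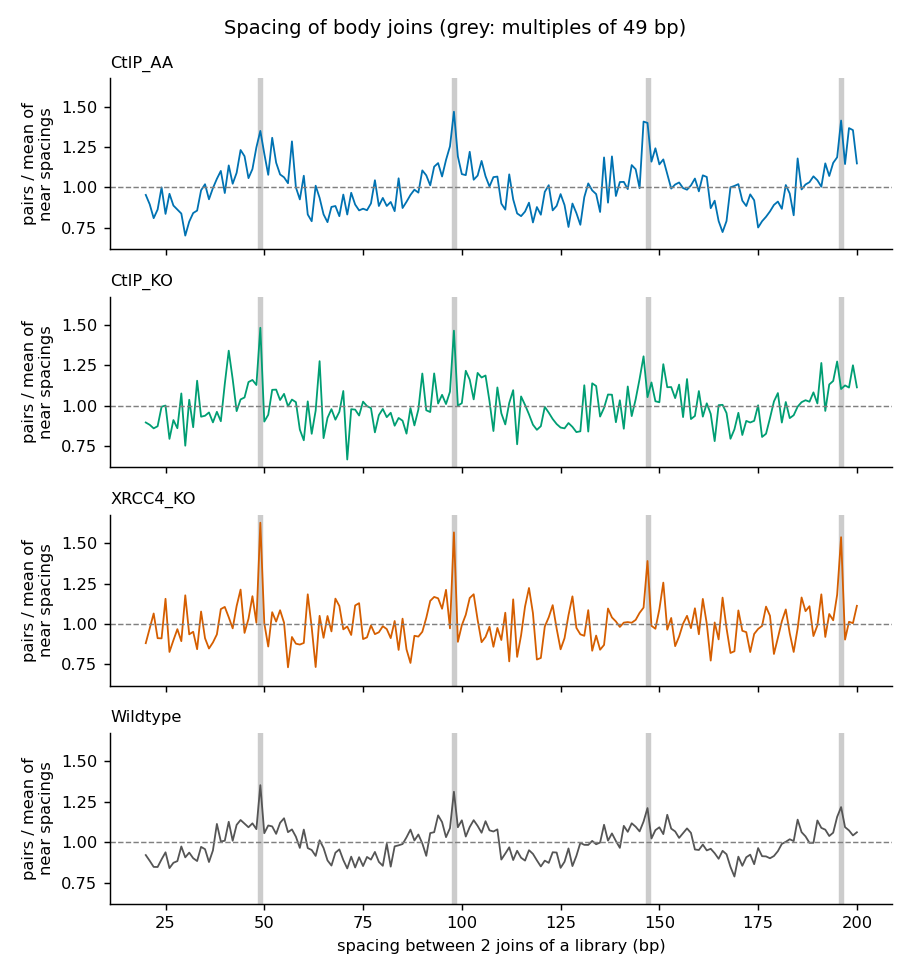
Pairs of body joins at each spacing (horizontal, bp), divided by the mean number of pairs at the spacings up to 19 bp to either side (vertical, ratio), in 1 panel a library with Wildtype at the bottom. Grey lines mark multiples of 49 bp, where all libraries rise at 49 and 98 bp.

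The repeats also limit how well a coordinate can be placed. The first 50 bases downstream of a coordinate occurred at another body coordinate too for 15.3% of coordinates, which took 27.9% of joins in CtIP_AA, 23.9% in CtIP_KO, 24.7% in XRCC4_KO and 26.0% in Wildtype. Aligned prey of blunt body joins had a median of 123 bases in CtIP_AA, 110.5 in CtIP_KO, 110 in XRCC4_KO and 125 in Wildtype, and 16.9%, 21.0%, 18.0% and 13.9% of them were shorter than 50 bases. How the deposited alignments placed reads that fit several repeats was not tested. The word at which a prey starts does not depend on that choice where the copies are identical.

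AGCT occurred 122 times in the body on the strand read downstream and, as its own reverse complement, at the same places on the other strand. GAGCT, which contains AGCT, occurred 30 times downstream and 22 times on the other strand, and GGGGT 9 and 0 times. Windows of 20 bases around a join held AGCT on either strand in 37.9% of joins in CtIP_AA, 40.4% in CtIP_KO, 31.9% in XRCC4_KO and 38.2% in Wildtype, against 27.9% of all windows of that length. For GAGCT the shares were 16.2%, 18.5%, 12.7% and 16.4%, against 11.8% of windows. For GGGGT they were 0.931%, 2.07%, 1.00% and 1.97%, against 2.18% of windows.

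Within AGCT, joins of CtIP_AA, CtIP_KO and Wildtype gathered at 1 base. The start is the first base that the deposited alignment gave to the prey, so it also depends on where that alignment ended, which was not tested. The last base of AGCT was the first prey base of 95 of 1289 joins in CtIP_AA (7.37%, 6.07 to 8.93), 60 of 919 in CtIP_KO (6.53%, 5.11 to 8.31), 24 of 1295 in XRCC4_KO (1.85%, 1.25 to 2.74) and 222 of 3598 in Wildtype (6.17%, 5.43 to 7.00). Such bases are 1.84% of the coordinates, so this start was 4.00, 3.54 and 3.35 times more frequent than its coordinates in CtIP_AA, CtIP_KO and Wildtype, and 1.00 times in XRCC4_KO. Set against Wildtype, the odds ratio in XRCC4_KO came to 0.287, with interval 0.179 to 0.441 (Fisher's exact test, adjusted p = 5.12e-10 over 15 tests of 5 start positions and 3 pairs). CtIP_AA and CtIP_KO gave no call, at odds ratios of 1.21 (0.933 to 1.56) and 1.06 (0.777 to 1.43) and exact adjusted p = 0.422 and 0.940. The other start positions in and just after AGCT gave no call in any pair. This test was chosen after the data were seen. The low share of XRCC4_KO held on both sides of the midpoint of the body, with 1.67% of upstream and 2.19% of downstream joins, against 6.96% and 5.01% in Wildtype.

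**Figure D3:**
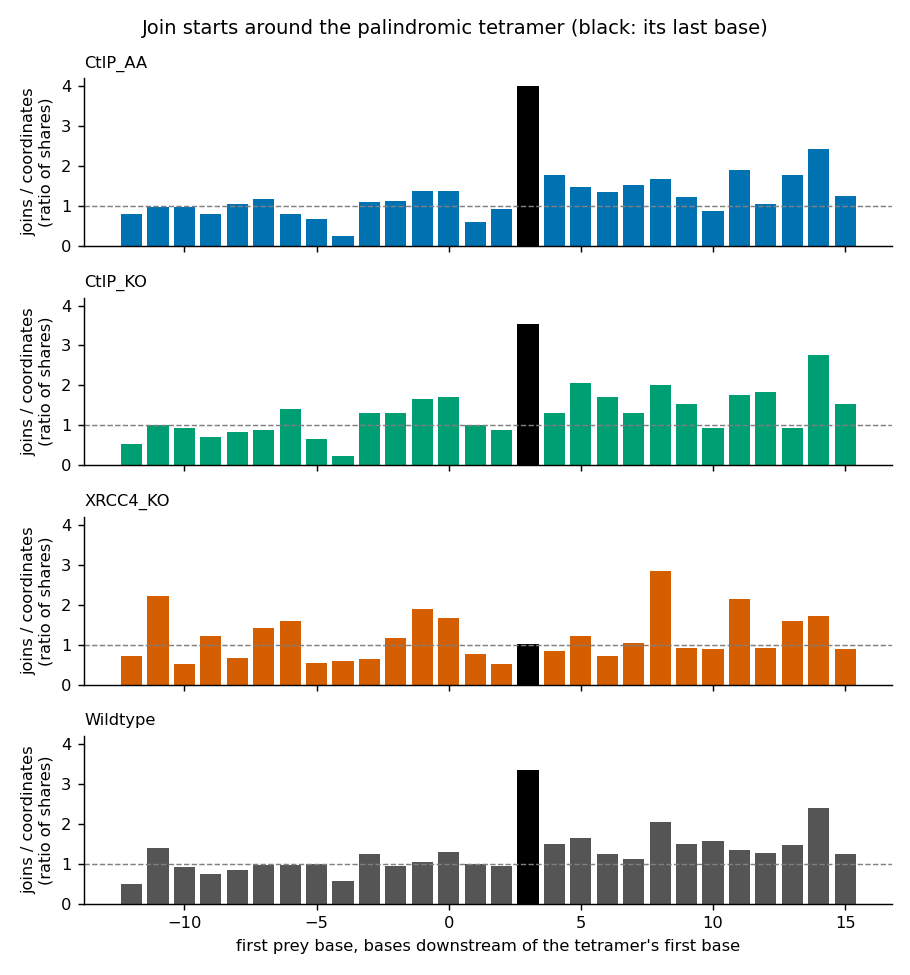
Share of body joins whose prey starts at each offset from the first base of the palindromic tetramer, divided by the share of coordinates at that offset (vertical, ratio), against the offset in bases downstream (horizontal), with Wildtype at the bottom. The black bar is the tetramer's last base, at 4.00 in CtIP_AA, 3.54 in CtIP_KO, 1.00 in XRCC4_KO and 3.35 in Wildtype.

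The same measure was taken in the other 2 switch regions over their central stretches. In Sε, joins that start at the last base of AGCT were 11.5% in CtIP_AA, 10.0% in CtIP_KO, 6.19% in XRCC4_KO and 9.78% in Wildtype, where such bases are 2.94% of coordinates. XRCC4_KO against Wildtype missed the threshold there, at an odds ratio of 0.609 with interval 0.380 to 0.937 (exact adjusted p = 0.0602). In Sμ the shares were 18.1%, 12.9%, 10.0% and 14.9% in the same order, against 5.41% of coordinates, and XRCC4_KO passed with odds ratio 0.637, interval 0.473 to 0.850 (exact adjusted p = 0.00890). The interval of the Sγ1 odds ratio, 0.179 to 0.441, overlaps that of Sε, and the difference between regions was not tested. In XRCC4_KO the share exceeded that of coordinates in Sε (2.11 times) and Sμ (1.86 times) but not in the Sγ1 body. A base was read for 95.1% of coordinates in Sε and 84.9% in Sμ, against 98.8% in the Sγ1 body. AGCT at unread coordinates is not counted, so these ratios are not read at equal coverage.

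Joins with inserted bases held the largest share of AGCT starts in the libraries where every join's structure was read, CtIP_AA and CtIP_KO. Among body joins with an insertion, 65 of 361 in CtIP_AA (18.0%, 14.4 to 22.3) and 36 of 235 in CtIP_KO (15.3%, 11.3 to 20.5) started at the last base of AGCT. Among blunt joins these were 17 of 282 (6.03%) and 19 of 212 (8.96%), and among joins with microhomology 12 of 638 (1.88%) and 5 of 466 (1.07%). The last inserted base was cytosine in 0 of these joins in both libraries, as it must be, since a germline cytosine there would be aligned as prey. It was adenine in 41 of the 65 joins of CtIP_AA and in 16 of the 36 of CtIP_KO, and otherwise guanine or thymine. Where 3 or more bases were inserted at AGCT, the 2 bases before the last one were those of the germline AGCT in 11 of 19 joins of CtIP_AA (57.9%, 36.3 to 76.9) and 16 of 20 of CtIP_KO (80.0%, 58.4 to 91.9). At other coordinates the corresponding 2 bases matched the germline in 45 of 142 (31.7%, 24.6 to 39.7) and 30 of 105 (28.6%, 20.8 to 37.8). In these joins the read holds the germline bases on both sides of the place of the cytosine and another base at that place, and the tables count the bases before the prey as inserted. How such joins arose was not tested.

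The AGCT share thus varied with join structure, and structure differed between the libraries. Deletional Sγ1 joins with insertions were 17.4% in XRCC4_KO and 25.8% in Wildtype. The part of join structure in the low AGCT share of XRCC4_KO was not tested. Among blunt joins alone, 5 of 181 in XRCC4_KO (2.76%) and 56 of 831 in Wildtype (6.74%) started at the last base of AGCT, an odds ratio of 0.393 (0.121 to 0.994) that did not pass the test (exact adjusted p = 0.118). Among all other joins the shares were 1.71% and 6.00% (odds ratio 0.272, exact adjusted p = 3.01e-09). With each coordinate counted once, the shares were 2.00% in XRCC4_KO, 5.60% in CtIP_KO and 3.58% in Wildtype. That share depends on depth, since the 222 Wildtype joins at AGCT fell on 76 of the 122 coordinates and the 60 of CtIP_KO on 42, so no difference is read from it.

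XRCC4_KO joins started more often at words that the bait also holds. The first 6 prey bases occurred within the first 100 bases of the bait for 18.0% of body joins in XRCC4_KO (233 of 1295, 16.0 to 20.2), 10.9% in CtIP_AA (140 of 1289), 11.1% in CtIP_KO (102 of 919) and 10.1% in Wildtype (362 of 3598), against 6.59% of coordinates. Against Wildtype, XRCC4_KO passed Fisher's exact test at odds ratio 1.96 (1.63 to 2.35), adjusted p = 1.38e-12. CtIP_AA at 1.09 (0.879 to 1.34) and CtIP_KO at 1.12 (0.875 to 1.41) gave exact adjusted p = 0.423 each and no call. At 8 bases the shares were 4.25% in XRCC4_KO, 1.40% in CtIP_AA, 1.63% in CtIP_KO and 1.97% in Wildtype, against 0.590% of coordinates, and the odds ratio of XRCC4_KO was 2.20 (exact adjusted p = 6.92e-05). Among blunt joins, which have no overlap, the share at 6 bases was 3.31% in XRCC4_KO and 6.62% in Wildtype (odds ratio 0.484, exact adjusted p = 0.178). This test was also chosen after the data were seen. The prey start includes the overlap, so joins with long microhomology raise this share by themselves. Microhomology of 6 or more bp was found in 147 of 1420 deletional Sγ1 joins in XRCC4_KO and 115 of 3706 in Wildtype. The match is therefore no result separate from microhomology, and its part beyond the overlap was not tested.

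**Figure D4:**
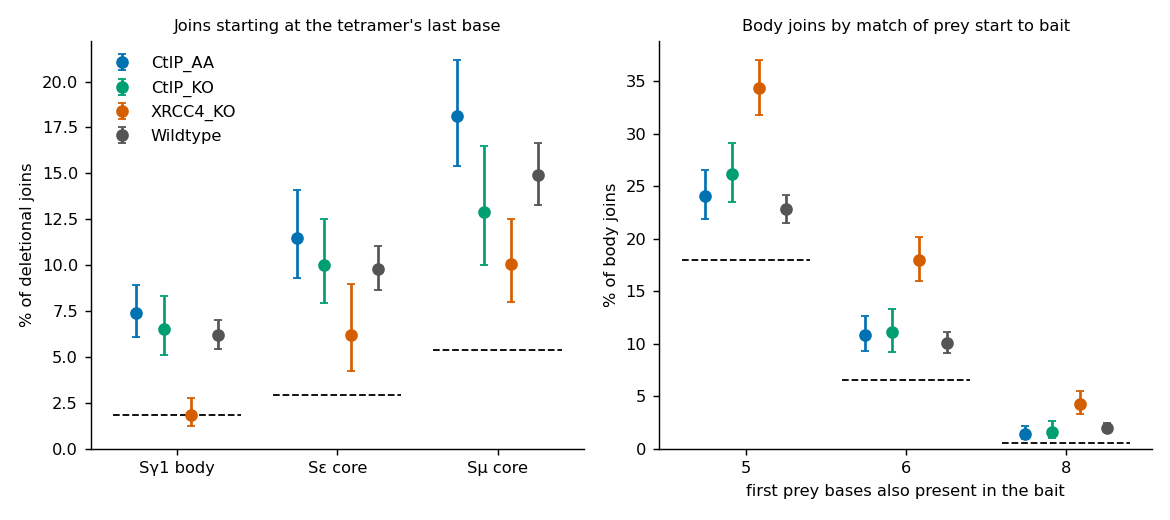
Left, share of deletional joins (percent) that start at the last base of the palindromic tetramer in the Sγ1 body, Sε and Sμ. Right, share of body joins whose first 5, 6 or 8 prey bases occur in the bait. Points are libraries, from left to right CtIP_AA, CtIP_KO, XRCC4_KO and Wildtype, with 95% Wilson intervals, and dashed lines give the share of coordinates. XRCC4_KO is the lowest point in each region on the left and the highest at each length on the right.

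The 3 words in capitals in the bait made up much of this match. GGCAGCCA, at base 55 of the bait and at 18 body coordinates (0.272%), was the longest match of 42 joins in XRCC4_KO (3.24%), 14 in CtIP_AA (1.09%), 11 in CtIP_KO (1.20%) and 56 in Wildtype (1.56%). CCAGGCA, at base 29 and at 45 coordinates (0.680%), took 51 joins in XRCC4_KO (3.94%), 22 in CtIP_AA (1.71%), 14 in CtIP_KO (1.52%) and 47 in Wildtype (1.31%). AGCCAG, at base 48 and at 43 coordinates (0.650%), took 42 joins in XRCC4_KO (3.24%), 37 in CtIP_AA (2.87%), 23 in CtIP_KO (2.503%) and 73 in Wildtype (2.03%). All 3 words started prey more often than their coordinates would give in every library, and XRCC4_KO had the highest share of each. The words were chosen by these counts, so they are described without a test. In the repeat shown above, GGCAGCCA starts 8 bases downstream of the first base of AGCT, the offset with the highest ratio in XRCC4_KO.

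Where single joins could be read, a matching word was not always used as microhomology. Of the body joins with 6 or more bp of microhomology, 30 of 38 in CtIP_AA (78.9%) and 22 of 31 in CtIP_KO (71.0%) started at a match of 6 or more bases. In the other direction, 30 of 138 joins at such a match in CtIP_AA (21.7%) and 22 of 99 in CtIP_KO (22.2%) had microhomology of that length. The most frequent overlap of 5 to 15 bp was AGCCAG, with 11 of 70 such joins in CtIP_AA and 8 of 54 in CtIP_KO. TGTGG and GCAGC followed in CtIP_AA with 5 joins each. CAGAG with 6 joins and AGCCA with 5 followed in CtIP_KO. The word GGCAGCCA had 4 joins in each library. Mean microhomology of body joins was 2.29 ± 1.63 bp in CtIP_AA and 2.45 ± 1.83 bp in CtIP_KO (SD over 1 to 15 bp), with a median of 2 bp in both.

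The deposited summary gives overlap and insertion for all deletional Sγ1 joins, the few outside the body included. Joins with microhomology were 69.2% in XRCC4_KO (983 of 1420, 66.8 to 71.6), 49.96% in CtIP_AA, 50.9% in CtIP_KO and 51.2% in Wildtype. The ratio of XRCC4_KO to Wildtype increased with overlap length up to 9 bp. Joins with 1 bp were 14.4% in XRCC4_KO and 20.2% in Wildtype, those with 2 to 3 bp 31.3% and 23.2%, those with 4 to 5 bp 13.2% and 4.75%, those with 6 to 7 bp 6.69% and 2.02%, and those with 8 to 9 bp 3.17% and 0.836%. The last bin, 10 bp and more, held 7 joins in XRCC4_KO (0.493%), 1 in CtIP_AA (0.0762%), 8 in CtIP_KO (0.842%, 0.427 to 1.65) and 9 in Wildtype (0.243%). Its share was highest in CtIP_KO, and this bin was not tested alone. Overlaps of at least 4 bp, taken over those of 1 to 15 bp, made up 34.1% in XRCC4_KO and 15.3% in Wildtype (odds ratio 2.85 with interval 2.37 to 3.43 by Fisher's exact test, adjusted p = 1.03e-28). Blunt joins made up 13.4% in XRCC4_KO and 23.0% in Wildtype, odds ratio 0.516 (exact adjusted p = 1.37e-14). Insertions made up 17.4% in XRCC4_KO and 25.8% in Wildtype, odds ratio 0.606 (exact adjusted p = 3.94e-10). Insertions of 2 or more bp among insertions were 68.4% in XRCC4_KO and 63.5% in Wildtype, a difference short of the threshold at odds ratio 1.25, interval 0.916 to 1.70 (exact adjusted p = 0.336). No class of CtIP_AA or CtIP_KO passed the test against Wildtype, with exact adjusted p between 0.323 and 0.940. For overlaps of at least 4 bp, CtIP_AA had odds ratio 0.969 (0.747 to 1.25) and CtIP_KO 1.19 (0.906 to 1.57).

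**Figure D5:**
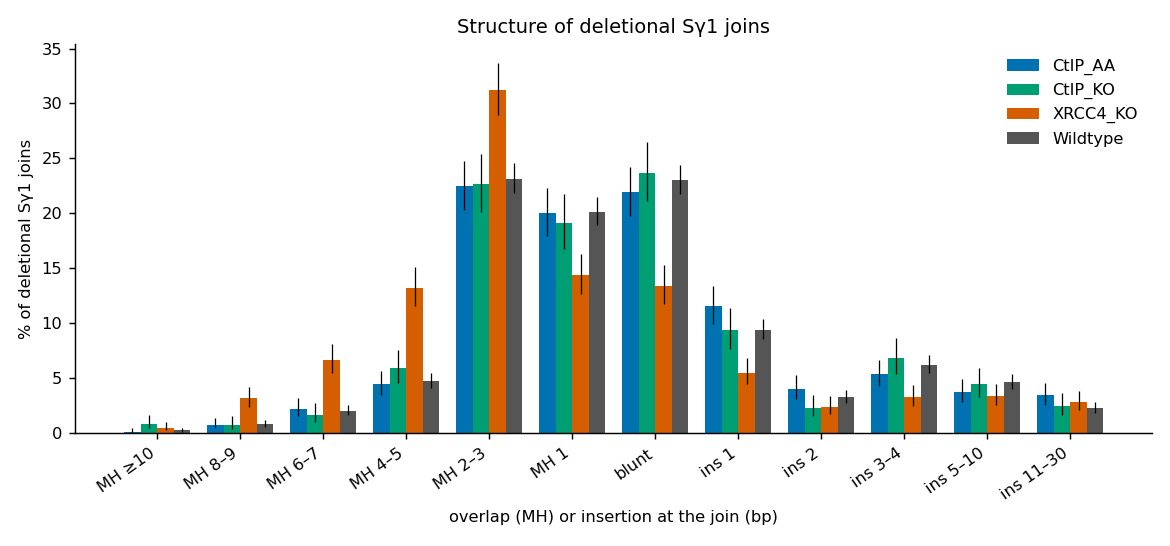
Share of deletional Sγ1 joins (vertical, percent) by length of overlap (MH) or insertion in bp (horizontal), with bars in the order CtIP_AA, CtIP_KO, XRCC4_KO and Wildtype and 95% Wilson intervals as lines. XRCC4_KO is above the other libraries from 2 to 9 bp of overlap and below them at 1 bp, at blunt joins and at insertions of 1 bp.

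Long overlaps were a feature of Sγ1 joins in every library when set against deletional joins to Sε in the same library. Microhomology of 6 or more bp, a length chosen after the data were seen, took 6.10% of the Sγ1 and 2.05% of the Sε overlaps of 1 to 15 bp in CtIP_AA (odds ratio 3.10, Fisher's exact adjusted p = 0.00409). CtIP_KO had 6.21% in Sγ1 against 0.923% in Sε, odds ratio 7.10 (interval 2.18 to 36.6, exact adjusted p = 0.000116). XRCC4_KO had 14.95% in Sγ1 and 1.95% in Sε (odds ratio 8.85, interval 3.65 to 28.0, with exact adjusted p = 3.59e-10), and Wildtype had 6.07% and 1.81% (odds ratio 3.50, exact adjusted p = 6.15e-09). Sε rests on 257 to 1214 joins with microhomology a library, and on 3 such long overlaps in CtIP_KO, 5 in XRCC4_KO and 7 in CtIP_AA. At 4 or more bp the difference passed in XRCC4_KO (34.1% of Sγ1 against 15.6% of Sε overlaps at odds ratio 2.80, exact adjusted p = 4.11e-08) and Wildtype (15.3% and 12.0%, odds ratio 1.33, adjusted p = 0.0477), and not in CtIP_AA or CtIP_KO (exact adjusted p = 0.632 and 0.123). Blunt joins were rarer in Sγ1 than in Sε in XRCC4_KO (13.4% against 20.9% at odds ratio 0.586, exact adjusted p = 0.00155), and the other libraries gave no call (adjusted p between 0.0703 and 0.349).

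The blunt share was also set against position inside the body, at the midpoint 114573340. In Wildtype 20.9% of 2155 upstream joins and 26.2% of 1458 downstream joins were blunt (odds ratio 0.746, 0.636 to 0.874, Fisher's exact adjusted p = 0.00099). With the split at the Wildtype median the odds ratio was 0.819 and did not pass the test (exact adjusted p = 0.0512). No mutant library gave a call, with 22.1% upstream and 21.6% downstream in CtIP_AA, 23.3% and 22.9% in CtIP_KO, and 13.7% and 14.3% in XRCC4_KO (odds ratios 1.03, 1.02 and 0.958, exact adjusted p = 0.936 for each). The difference between these odds ratios was not tested.

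All libraries share 1 sequencing run, per the read names. Among blunt body joins, 4 of 252 distinct pairs of bait end and prey coordinate in CtIP_AA (1.59%) were also found in another library, as were 8 of 201 in CtIP_KO (3.98%), 14 of 154 in XRCC4_KO (9.09%) and 19 of 703 in Wildtype (2.70%). Of the 14 pairs of XRCC4_KO, 13 were also in Wildtype, and no read name occurred in 2 libraries. Whether such pairs are chance repeats or reads counted in a wrong library was not tested.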

How the data were processed

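Joins were read by HTGTS, linear amplification from an Sμ primer with nested PCR and AflII digestion of unrearranged DNA, per the labels' protocols. Alignment used Bowtie2 and mm9, per the submitters' processing notes. The caller of junctions and any removal of duplicates are not given in the sources used here. Per library, the deposited files give 1 mm9 coordinate per join, the number of joins per overlap or insertion bin, and junction tables with reads. Coordinates are inclusive and printed as deposited. Blunt joins are listed for every library (6, 3, 5 and 9 lines of these tables were empty in CtIP_AA, CtIP_KO, XRCC4_KO and Wildtype). Single Sγ1 joins of all structures were used for CtIP_AA and CtIP_KO, and those of the other libraries were not used here.

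From these, shares with 95% Wilson intervals, two-sided Fisher's exact tests with conditional odds ratios, and Benjamini-Hochberg adjustment at 0.05 were computed (scipy 1.17.1 and pandas 2.3.3 under Python 3.11.15). Bins of 500 bp start at each region's 2.5th Wildtype percentile. Bins and coordinates needed 10 joins in the pair. Named are the 3 fullest bins and 5 fullest coordinates per library, called bins (at most 5 a pair) and 6 sequences by mean share. Members, lists and tests were chosen with earlier results of these data known.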

Additional observations from a re-analysis of the deposited data

How the results depend on the processing

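No paired analysis was possible because each genotype is 1 library, and no library could be left out. Of 88 odds ratios under an alternative, 73 kept their side of the threshold. Some of these 73 changed direction, without a call in either setting. The AGCT odds ratio turned from 1.21 to 0.888 in CtIP_AA among blunt joins. In CtIP_KO it turned from 1.06 to 0.965 among joins other than blunt. The bait match in CtIP_AA turned from 1.09 to 0.704 at 8 bases. Of 30 counts of differing bins or coordinates, 23 lay within 1.5 times the reported count, though some of these differ in how many are higher or lower. Narrower bins gave 1 differing body bin in CtIP_KO, a shifted grid gave 5 in XRCC4_KO, and counting each coordinate once gave 0 in CtIP_AA (Fisher's exact test). Differing coordinates numbered 3 in CtIP_AA and 2 in XRCC4_KO with a minimum of 5 joins, which those coordinates met through the library in which they are high, so these counts show no difference. They numbered 2 in XRCC4_KO with neighbours within 2 bp joined, and 1 in XRCC4_KO over body joins only. These too met the minimum through the library in which they are high, so no difference is read from them. The AGCT odds ratio was 0.393 in XRCC4_KO among blunt joins (past the threshold before, not then) and 1.60 in CtIP_KO with each coordinate once (past it only then, on a share that depends on depth). The bait match gave an odds ratio of 1.20 in CtIP_KO at 5 bases, past the threshold, and turned to 0.484 in XRCC4_KO among blunt joins, which by construction have no overlap. The blunt odds ratio by position in Wildtype was 0.819 with the split at the Wildtype median. The cause of the other changes was not tested.

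With Sμ in place of Sε, some odds ratios of Sγ1 joins that passed the test with either region turned. They became 0.608 for long insertions in CtIP_AA, 1.24 for blunt joins in XRCC4_KO, and 0.663 for insertions and 0.843 for long microhomology in Wildtype. Without a call for either region, blunt joins turned too, from 0.875 to 1.13 in CtIP_AA, 0.764 to 1.21 in CtIP_KO and 0.875 to 1.14 in Wildtype. So did long microhomology in CtIP_AA (1.16 to 0.787) and long insertions in CtIP_KO (1.26 to 0.863) and Wildtype (1.15 to 0.885). In an unchanged direction, odds ratios passed only with Sμ for microhomology in CtIP_AA (1.37) and Wildtype (1.29). The same held for insertions in CtIP_AA (0.638), CtIP_KO (0.719) and XRCC4_KO (0.641). Long microhomology in XRCC4_KO no longer passed (1.29). Microhomology of 3 or more bp was not run, because the deposited bins join 2 and 3 bp, and insertions over 30 bp were not added for XRCC4_KO. At 950 to 3706 deletional Sγ1 joins a library, single coordinates with few joins give wide intervals, and those with under 10 joins in a pair were not tested in the reported setting.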
